A study of Mus musculus with 44 samples.

Results

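The nuclear genes of the mitochondrial respiratory chain and of ATP synthase were followed through a study in which virus carried RXRa into the mouse nucleus accumbens, a striatal region of reward learning. RXRa, retinoid X receptor alpha, binds DNA as the partner of other nuclear receptors and regulates transcription. Members were the protein-coding genes, by GENCODE M21, present in both count tables whose symbols start with Nduf followed by a, b, c, s or v, with Uqcr, with Cox4 to Cox8, or with Atp5. The rule found 90 genes, with 89 distinct symbols, among 55487 gene rows. It took no measured value into account, although it was chosen with earlier results of these data known. Of 103 rows with such a symbol, 12 processed pseudogenes and 1 non-coding gene were left out by their type.

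Bulk accumbens tissue came from males that had received HSV-GFP (4 libraries) or the same kind of herpes simplex vector with RXRa (4 libraries). Nuclei sorted as D1 or D2, the usual names of striatal neurons with dopamine receptor D1 or D2, came from females and males that had received AAV9-CAG-DIO-EGFP or AAV9-CAG-DIO-EGFP-P2A-RXRa, vectors whose insert needs Cre recombinase to be read. There were 10 D1 EGFP, 8 D1 RXRa, 9 D2 EGFP and 8 D2 RXRa libraries, in 8 groups of 4 or 5 by sex, and single libraries are named by the replicate number of their label. A further sorted library, whose title and vector label name different vectors, entered no comparison. The Cre line, strain, age and time after infusion are not given in the sources used here, and neither is whether each library is 1 animal, so p-values measure the spread between libraries. The vector's own RXRa sequence had 0 counts in the bulk controls and 567 to 914 in the bulk RXRa libraries. In the sorted libraries it had 0 to 17 counts under EGFP and 1216 to 13017 under RXRa.

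The respiratory chain passes electrons from NADH and succinate to oxygen and pumps protons across the inner mitochondrial membrane, and ATP synthase uses the resulting gradient to make ATP. Complex I takes electrons from NADH, complex III passes them from ubiquinol to cytochrome c, and complex IV, cytochrome c oxidase, hands them to oxygen. Most subunits are encoded in the nucleus and a few in the mitochondrial genome, so each complex is assembled from products of both. Neurons depend heavily on this route for the ATP that restores ion gradients after firing. The members divided into 46 genes named for complex I (7 core subunits, 30 accessory subunits, 8 assembly factors and the isoform Ndufa4l2), 8 of complex III, 18 of complex IV and 18 of ATP synthase. Ndufa4 and Ndufa4l2 carry complex I names, although the Ndufa4 protein is now placed in complex IV.

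Transcription of many of these genes is known to use the factors NRF1, GABP (also called NRF2) and YY1, and RXR bound with a PPAR partner is known to read a direct repeat of a half-site. The letters of these sites were searched on both strands of RefSeq promoter windows on GRCm38.p6, from 250 bases before to 50 bases after the start. Of the 89 member symbols, 71 had a window and 18 did not. The NRF1 letters, GCGCA and GCGC with any 1 base between them, stood in 17 of the 71 (23.9%), against 5.19% of all 27025 genes with a window. The YY1 letters AAGATGGCG stood in 8 (11.3%) against 1.64%, the GABP letters CCGGAAGT in 5 (7.04%) against 4.31%, and GGGCGG, read by SP factors, in 31 (43.7%) against 38.2%. The repeat, AGGTCA followed after 1 base by AGGTCA, stood in 0 of 71 windows and in 0.05% of all genes, and the half-site AGGTCA alone, which the repeat contains, in 15 (21.1%) against 18.1%. A match is a run of letters and not a measured site. The stretches shown are 150 bases upstream of every annotated exon of the gene, 5′ to 3′ on the gene's strand, with matches to the NRF1, GABP or YY1 letters in capitals. The first 4 hold NRF1 letters and come from an accessory subunit of complex I with one of the smallest p-values in D2, another complex I subunit, a stalk subunit of ATP synthase and an assembly factor. Uqcrh, the hinge protein of complex III, holds GABP letters, and Ndufb10 and Atp5b, with the largest fold changes of D2 nuclei, have no capital in the stretch.
Ndufs5 lies at chr4:123718203-123718352, Ndufb4 at chr16:37654454-37654603, Atp5h at chr11:115419963-115420112, Uqcrh at chr4:116075072-116075221 and Ndufb10 at chr17:24724479-24724628, all on the minus strand. Ndufaf4 lies at chr4:24897933-24898082 and Atp5b at chr10:128083123-128083272, both on the plus strand.
Ndufs5: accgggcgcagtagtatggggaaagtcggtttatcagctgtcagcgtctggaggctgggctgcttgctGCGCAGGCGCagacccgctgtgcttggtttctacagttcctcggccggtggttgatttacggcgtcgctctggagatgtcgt
Ndufb4: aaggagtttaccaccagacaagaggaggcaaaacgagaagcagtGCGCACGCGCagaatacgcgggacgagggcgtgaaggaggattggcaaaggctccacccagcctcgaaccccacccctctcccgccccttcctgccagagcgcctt
Atp5h: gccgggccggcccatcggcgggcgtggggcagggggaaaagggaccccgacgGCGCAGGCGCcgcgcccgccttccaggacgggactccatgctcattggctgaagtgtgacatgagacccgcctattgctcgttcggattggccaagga
Ndufaf4: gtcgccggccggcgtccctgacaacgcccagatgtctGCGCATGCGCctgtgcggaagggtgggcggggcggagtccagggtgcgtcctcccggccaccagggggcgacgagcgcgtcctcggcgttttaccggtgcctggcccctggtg
Uqcrh: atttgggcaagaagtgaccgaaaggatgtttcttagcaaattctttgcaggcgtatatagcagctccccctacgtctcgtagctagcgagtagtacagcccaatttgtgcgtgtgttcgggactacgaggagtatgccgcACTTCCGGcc
Ndufb10: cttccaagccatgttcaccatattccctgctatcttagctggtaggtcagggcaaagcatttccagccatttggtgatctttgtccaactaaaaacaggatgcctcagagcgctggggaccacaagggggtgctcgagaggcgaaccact
Atp5b: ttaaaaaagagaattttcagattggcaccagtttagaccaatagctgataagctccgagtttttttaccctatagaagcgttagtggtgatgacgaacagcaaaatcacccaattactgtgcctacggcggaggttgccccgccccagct

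Members made up 0.727% to 0.816% of the counts of a bulk library (totals of 21567565 to 29167142) and 0.108% to 0.162% of a sorted library (totals of 12211655 to 27757463). A typical member was therefore read from 1167.5 to 1633.5 counts in bulk but from 100 to 221.5 counts in sorted nuclei, taking the median member of each library. Bulk RNA was poly(A)-selected and sorted RNA was ribosomal-RNA-depleted total RNA from nuclei, and no test compared levels across the tables. Where ranks or single genes of both tables stand side by side below, that is a description. Exons of 33 members overlap exons of another gene, and whether counting used strand is not given in the sources used here. For these members, among them Uqcrc2 (with Pdzd9), Atp5a1 (with Haus1) and Atp5d (with Cbarp), the partner's reads cannot be told apart. Only 50 of the 90 members have a gene body that overlaps no other gene body. Whether intron reads were counted is not given either, so overlaps outside exons may also matter in sorted nuclei.

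In bulk GFP tissue the highest levels per length, in CPM (counts scaled to a library of 1e6 after normalization) per kb of exon, belonged to catalytic and structural subunits. Cox6a1, a subunit of complex IV, stood at 272 ± 22.6 (SD, n = 4), Atp5a1, the alpha subunit of ATP synthase, at 267 ± 10.3, and Cox8a of complex IV at 264.6 ± 16.8. These 3 did not differ beyond their spread. Atp5b, the catalytic beta subunit, followed at 219 ± 13.9, and Cox4i1, which in complex IV takes part in its regulation by nucleotides, at 199 ± 10.8. The highest gene of complex I was Ndufa8 at 95.04 ± 5.70, and that of complex III was Uqcr10 at 90.5 ± 4.92. Core complex I genes ranged below these, with Ndufv1, which binds the flavin that accepts electrons from NADH, at 61.6 ± 3.53 and Ndufs1, which carries iron-sulfur clusters, at 18.3 ± 1.44. Uqcrc1 and Uqcrc2, the core proteins of complex III, lay together at 55.0 ± 3.26 and 55.4 ± 2.92, under the Rieske iron-sulfur protein Uqcrfs1 at 73.1 ± 3.66. The 3 genes for the c ring of ATP synthase encode the same mature protein. Per length, Atp5g3 stood at 83.0 ± 5.27, Atp5g2 at 38.3 ± 2.70 and Atp5g1 at 16.8 ± 1.87. Exon length was the union of all annotated exons, 2.18 kb for Atp5g3, 1.68 kb for Atp5g2 and 4.91 kb for Atp5g1. It was 8.09 kb for Ndufs1 against 2.63 kb for Ndufv1, and 4.14 kb for Uqcrc1 against 1.36 kb for Uqcrfs1. The order of genes in this paragraph rests in part on that length and is not an order of CPM alone. Atp5c1, the gamma subunit that turns inside the head, stood at 82.1 ± 4.26.

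Complex IV has pairs of genes for some subunits, one used in most tissues and one named from muscle, lung or testis. In bulk GFP tissue the common gene was the higher one in every pair, in CPM per kb of exon. Cox4i1 was 80.5 times Cox4i2 (2.47 ± 0.411, SD, n = 4), Cox6a1 was 31.4 times Cox6a2 (8.65 ± 2.19), Cox7a2 was 27.4 times Cox7a1 (2.56 ± 0.519) and Cox8a was 134 times Cox8b (1.98 ± 0.309). Cox6b1 was 51.6 times Cox6b2, and Ndufa4 was 31.2 times Ndufa4l2, a paralog known to be induced by low oxygen. Cox7b2 had at most 8 counts in a bulk library, and Cox8c had 1 count in all 8 together. The long model named Atp5o had 0 counts in each, which allows up to 0.103 to 0.139 CPM (3 counts per library, for counting error only).

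In bulk tissue none of the 87 members tested was called at a Benjamini-Hochberg adjusted p under 0.05 in edgeR's quasi-likelihood test, where 3.7% of all 18579 genes tested were called. Of the members, 9 had an unadjusted p under 0.05, against 21.5% of all genes, and limma voom called 0 and DESeq2 1, Cox7a2l. The 3 members below the count filter were Cox7b2, Cox8c and a long gene model that shares the symbol Atp5o. The members leaned the same way: 81 of 87 had a log2 fold change below 0, against 53.5% of all genes, with a median of -0.072 against -0.015 (with library totals as the only scaling, 68 of 87 against 44.9%, and -0.036 against 0.022). Among genes above 10 CPM in bulk, 79 of 80 members were below 0, against 60.5% of all 11131 such genes, and the medians were -0.073 and -0.035. The medians were -0.082 in complex I, -0.080 in complex III, -0.047 in complex IV and -0.064 in ATP synthase.

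Cox7a2l, a relative of a complex IV subunit that takes part in joining complexes III and IV into supercomplexes, had the smallest p in bulk. Its level was 126, 133, 131 and 131 CPM in the GFP libraries and 116, 117, 116 and 119 CPM in the RXRa libraries. The groups did not overlap, and every RXRa library was lower. The log2 fold change was -0.15 (SE 0.041, adjusted p = 0.0753 by edgeR). DESeq2 called it, with an adjusted p of 0.00802 in a range of 0.00802 to 0.223 over its alternatives and left-out libraries.

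Assembly factors and 1 accessory subunit of complex I came next. Ndufaf3, which helps to build an early part of complex I, stood at 32.8, 34.8, 34.2 and 36.1 CPM under GFP and 32.2, 31.4, 28.5 and 27.7 CPM under RXRa. Ndufaf8, the partner of the assembly factor Ndufaf5, stood at 13.9, 13.8, 14.0 and 12.5 CPM under GFP and 11.9, 12.5, 11.3 and 9.32 CPM under RXRa. Ndufb11, an X-linked accessory subunit, stood at 64.9, 71.1, 68.3 and 71.0 CPM under GFP and 64.7, 62.7, 63.7 and 60.8 CPM under RXRa. In all 3 genes each RXRa library lay below each GFP library, by a margin that was small in each gene. The log2 fold changes were -0.20 (SE 0.066), -0.27 (SE 0.10) and -0.13 (SE 0.048), with adjusted p-values by edgeR of 0.130, 0.172 and 0.167. With Cox7a2l, Ndufaf7 and Ndufaf2, 6 members had RXRa libraries below all GFP libraries, against 6.54% of all genes, so the share of members (of 87) was close to that of genes in general.

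The low-level isoforms leaned the other way in bulk. Of the 6 tested, 5 had a log2 fold change above 0, with a median of 0.35 (0.38 with library totals alone), and none was called. Cox7a1, the muscle isoform of Cox7a2, stood at 1.49, 1.01, 1.67 and 1.31 CPM under GFP and 2.46, 1.34, 1.94 and 2.55 CPM under RXRa. The groups overlapped through the second RXRa library, and the log2 fold change was 0.59 (SE 0.24, adjusted p = 0.193 by edgeR). Cox8b, another muscle isoform, stood at 0.637, 0.869, 0.629 and 0.713 CPM under GFP and 1.72, 0.654, 0.692 and 1.30 CPM under RXRa, so its log2 fold change of 0.61 (SE 0.33, adjusted p = 0.318 by edgeR) rested on the first and the last RXRa library. Cox6a2 had a value of 0.37 (SE 0.20) and Cox4i2 of 0.32 (SE 0.16).

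Among 9 lists of 5 cell type markers, 4 held a called gene in bulk. Of the D2 projection neuron markers 1 was called lower (median log2 fold change -0.22, with sums of 1642 to 1946 CPM under GFP and 1503 to 1675 CPM under RXRa). Of the astrocyte markers 1 was called higher (median 0.30, sums of 1812 to 2333 CPM and 1906 to 2773 CPM), and of the endothelial markers 1 (median 0.12). The summed level of 5 oligodendrocyte markers ranged from 4275 to 4812 CPM under GFP and from 2586 to 4471 CPM under RXRa, with none called and a median log2 fold change of -0.34. Of 5 T cell markers, 3 were called higher, with a median log2 fold change of 1.83, although their sum ranged from 43.6 to 59.0 CPM under GFP and from 44.6 to 78.2 CPM under RXRa. The lists for D1 projection neurons, interneurons, microglia and mural cells had no call, with medians from -0.11 to 0.20, and no marker of any list was at 0 in either group. Their part in the members' lean was not tested, and in bulk tissue fewer cells of a type and less RNA per cell cannot be told apart.

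In D1 nuclei no member was called, like all other genes tested (0% of 43902), by edgeR, DESeq2 or limma voom. By edgeR 1 member had an unadjusted p under 0.05, against 8.01% of all genes. Of the 90 members, 68 had a log2 fold change above 0 and the median was 0.094, against -0.014 over all genes, but with each library's share of counts in genes without any bulk count as a covariate 31 were above 0, against 47.5% of all genes, and the median was -0.024. The 5 with the smallest p were Atp5s, a factor associated with ATP synthase (-0.15, SE 0.052), the assembly factor Ndufaf8 (0.30, SE 0.15), the long model of Atp5o (0.10, SE 0.057), and the accessory subunits Ndufb11 (0.36, SE 0.21) and Ndufb7 (0.23, SE 0.15), with adjusted p-values by edgeR from 0.581 to 0.678.

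In D2 nuclei 46 of the 90 members rose under RXRa by edgeR's test and none fell. That is 51.1% of the members, where 14.9% of all 43902 genes tested rose and 7.14% fell. Of the members, 71 had an unadjusted p under 0.05, against 37.1% of all genes, and 83 had a log2 fold change above 0, against 44.1%. The median log2 fold change was 0.37, a fold of 1.29, against -0.043 over all genes. Genes expressed in the tissue rose often in general: among the 11119 tested genes above 10 CPM in bulk, 44.7% rose, against 56.2% (45) of the 80 members above that level, and the medians were 0.21 and 0.40. With library totals as the only scaling 15 members rose and 2 fell, Ndufa4l2 (-0.52, adjusted p = 0.0451 by edgeR) and Ndufaf2 (-0.17, adjusted p = 0.0319), while 4.69% of all genes rose and 21.3% fell. That scaling moved the median of all genes to -0.20, and the members' median lay 0.38 above it, compared with 0.41 above it with TMM scaling. The number called also rested on single libraries. It was 0 without RXRa library 4 of females, when 0 of all genes were called. It was 6 without RXRa library 5 and 15 without RXRa library 3 of males, 25 without RXRa library 2 of females, and 71 without RXRa library 1 of males. Among the controls it was 23 without EGFP library 1 and 24 without EGFP library 5 of females, and 25 without EGFP library 1 of males. Leaving out any of the other 9 D2 libraries kept the count within 1.5 times 46. Except for the fit with 0 calls, the shares of all genes called in these fits are not given here. The changes in count are therefore not read as particular to the members.

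**Figure D1:**
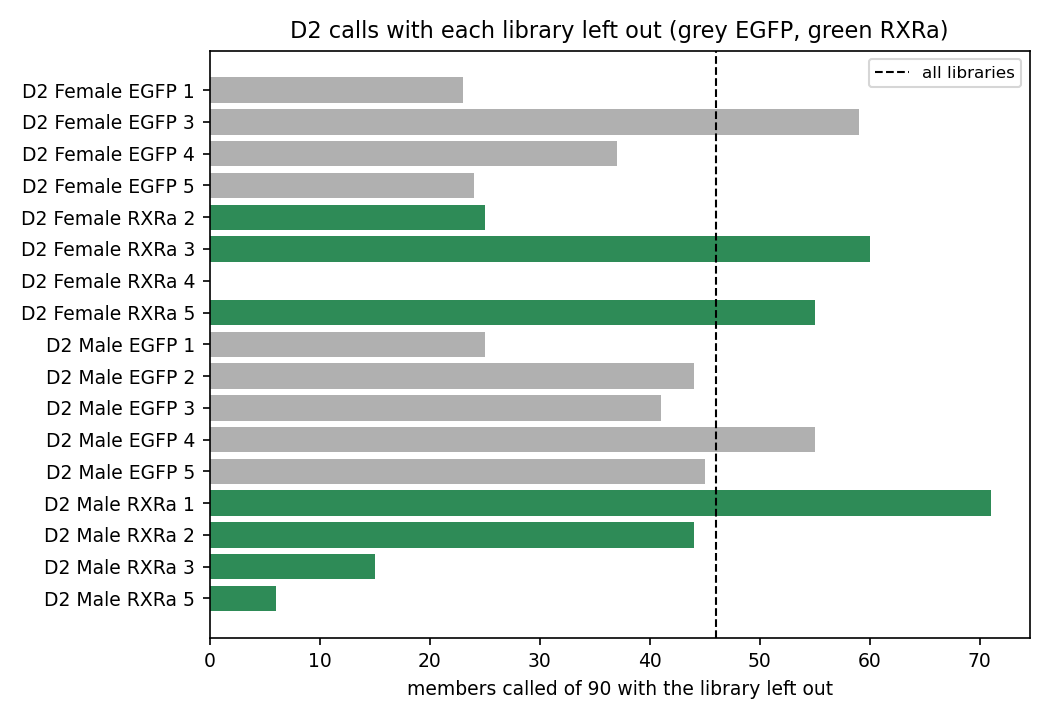
Number of members of 90 called in D2 when each library is left out (bars; grey EGFP, green RXRa; labels give population, sex, vector and replicate), with the number from all libraries as a dashed line. The bars run from 0 without RXRa library 4 of females to 71 without RXRa library 1 of males, around the 46 of the full set. Shares of all genes called in the same fits are not shown, so the changes are not read as particular to the members.

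**Figure D2:**
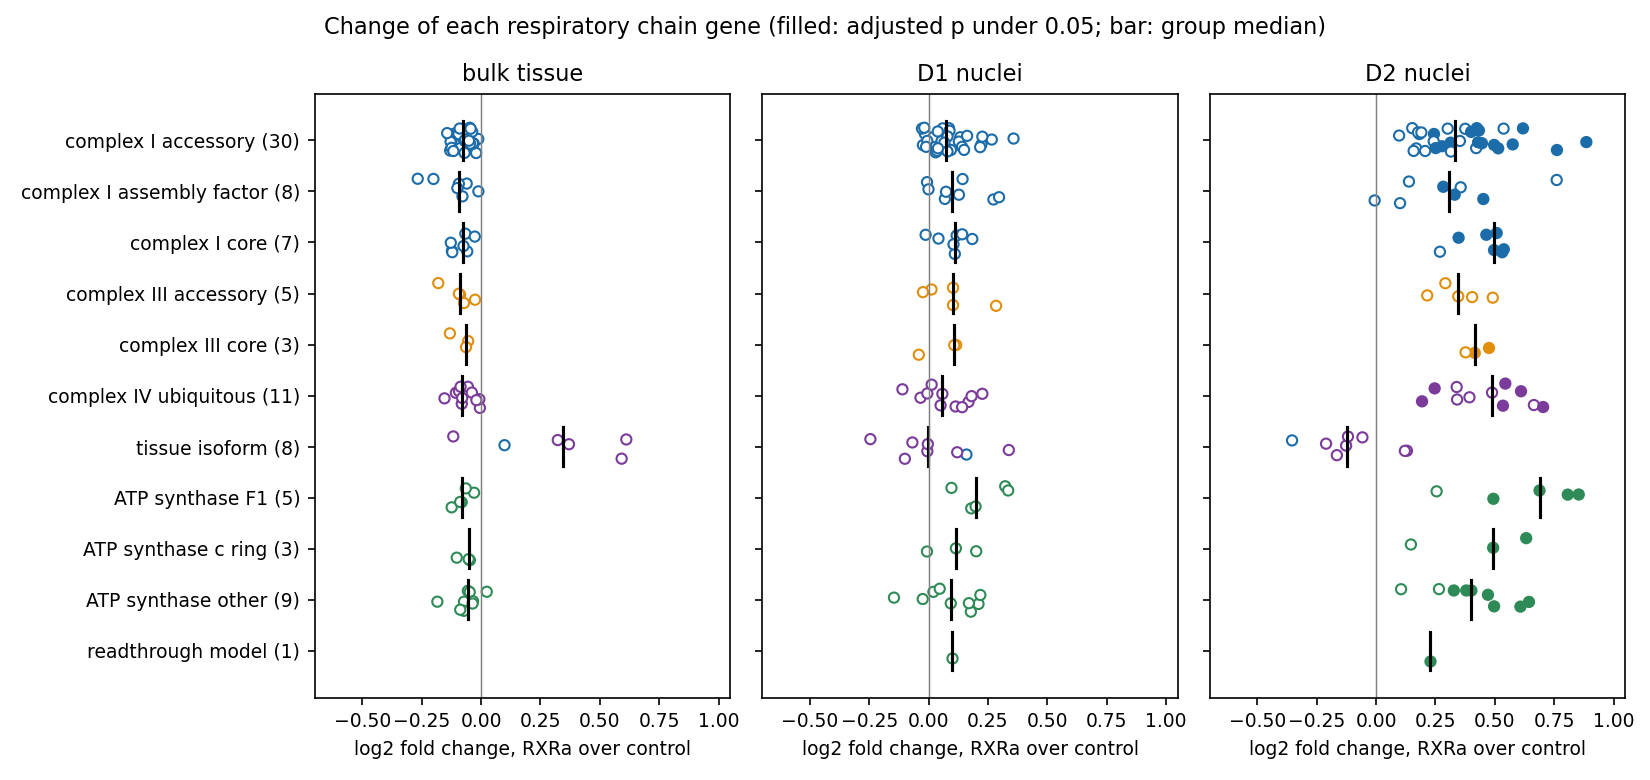
Log2 fold change of RXRa over its control for each member (1 point), by role, in bulk tissue, D1 nuclei and D2 nuclei; numbers in brackets are genes of the role, filled points passed an adjusted p of 0.05 and black bars are medians. All filled points lie in D2, right of 0, and the 8 tissue isoforms have none there.

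By role, the rise in D2 included core subunits of complexes I and III. Beside the counts by role here, and for ATP synthase and complex IV below, 14.9% of all genes tested rose. Of genes above 10 CPM in bulk 44.7% rose, and with library totals alone 4.69% of all genes did. Of the 7 core subunits of complex I, 6 rose, with a median log2 fold change of 0.50. Among them Ndufv1 had a value of 0.53 (SE 0.19, adjusted p = 0.0427 by edgeR) and Ndufs1 0.35 (SE 0.11, adjusted p = 0.0295). Of the 30 accessory subunits 15 rose, with a median of 0.33, and of the 8 assembly factors 3, Ndufaf5 (0.28), Ndufaf7 (0.33) and Ndufaf8 (0.45), named here after their values were seen. Ndufa4 had a value of 0.21 (SE 0.15, adjusted p = 0.327). In complex III the core proteins Uqcrc1 (0.48, SE 0.17, adjusted p = 0.0425) and Uqcrc2 rose and the Rieske protein Uqcrfs1 (0.38, SE 0.16, adjusted p = 0.0826) and the 5 accessory subunits did not pass the test, with all 8 above 0. With library totals alone 1 core subunit (median 0.31) and 5 accessory subunits of complex I, and 1 core subunit of complex III, rose, and of the assembly factors 0 rose and 1, Ndufaf2, fell.

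Among the complexes ATP synthase had the largest share. Of its 18 genes 14 rose, with a median log2 fold change of 0.48, and the median of the 5 genes of the F1 head was 0.69. The 14, and the 46 of all members, include the long Atp5o model (0.225, SE 0.058, adjusted p = 0.0129 by edgeR). That model spans other genes and had 0 counts in bulk. Atp5b stood at 0.85 (SE 0.26, adjusted p = 0.0237 by edgeR), Atp5a1 at 0.81 (SE 0.26, adjusted p = 0.0260), Atp5d, the delta subunit, at 0.69 (SE 0.18, adjusted p = 0.0134) and Atp5c1 at 0.49 (SE 0.13, adjusted p = 0.0125). Atp5e, the epsilon subunit, was the F1 gene that did not pass. In the c ring Atp5g2 (0.49, SE 0.12, adjusted p = 0.0122) and Atp5g3 (0.63, SE 0.18, adjusted p = 0.0184) rose, and Atp5g1 (0.15, SE 0.11, adjusted p = 0.321) did not pass and was below 0 with library totals alone (-0.027). With library totals alone 6 of the 18 rose, 4 of F1 and 2 of the c ring. Differences in count between the complexes were not tested.

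The tissue isoforms were read apart from the ubiquitous genes of complex IV. Of the 11 ubiquitous genes 6 rose, with a median log2 fold change of 0.49 and all 11 above 0. Cox4i1 had a value of 0.61 (SE 0.17, adjusted p = 0.0160 by edgeR), Cox6a1 0.53 (SE 0.14, adjusted p = 0.0138), Cox6c 0.54 (SE 0.17, adjusted p = 0.0249), Cox7c 0.70 (SE 0.23, adjusted p = 0.0292) and Cox5a 0.19 (SE 0.065, adjusted p = 0.0336). Cox8a, at 0.49 (SE 0.23, adjusted p = 0.112), did not pass. None of the 8 tissue isoforms passed, their median was -0.12, and 2 were above 0. The isoforms include Ndufa4l2, counted above under complex I. Mean levels in D2 EGFP nuclei were 0.38 (Cox6b2), 0.40 (Cox6a2), 0.69 (Cox8c), 0.99 (Ndufa4l2), 1.02 (Cox8b) and 1.31 CPM (Cox7a1). Cox4i2 stood at 7.63 CPM and Cox7b2, with few bulk counts, at 60.4 CPM. At the lowest of these levels the lack of a call does not show that an isoform did not respond. With library totals alone 2 of the ubiquitous genes rose, 0 isoforms were above 0 and 1, Ndufa4l2, fell. The difference between the ubiquitous genes and the isoforms was not tested.

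Single libraries show how the D2 groups differed. Uqcrc2, the member with the smallest p, stood at 22.1, 28.4, 23.3 and 24.2 CPM in females with EGFP and at 37.7, 27.6, 41.1 and 29.9 CPM in females with RXRa. In males it stood at 22.0, 27.3, 27.1, 29.0 and 28.4 CPM with EGFP and at 23.2, 30.9, 44.3 and 38.8 CPM with RXRa. In each sex 3 RXRa libraries lay above every EGFP library and 1 lay among them. The log2 fold change was 0.42 (SE 0.10, adjusted p = 0.0114 by edgeR).

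Atp5b spread more widely within each group. It stood at 12.7, 36.4, 19.9 and 14.3 CPM in females with EGFP and at 54.7, 30.2, 46.5 and 16.0 CPM in females with RXRa. In males it stood at 14.8, 21.5, 24.01, 32.8 and 21.8 CPM with EGFP and at 15.3, 33.9, 66.0 and 54.1 CPM with RXRa. The RXRa groups ran from the level of the lowest EGFP libraries to well above the highest ones.

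Other members had the same mixture of high and low RXRa libraries. Ndufb10, an accessory subunit of the membrane arm of complex I with the largest rise (0.89, SE 0.25, adjusted p = 0.0170 by edgeR), had a lowest, median and highest level of 2.33, 3.94 and 6.89 CPM over the 9 EGFP libraries and of 3.48, 8.001 and 14.1 CPM over the 8 RXRa libraries. Atp5a1 ran from 18.2 through 29.4 to 49.8 CPM and from 20.98 through 59.0 to 91.8 CPM. Ndufs5, an accessory subunit of complex I (0.43, SE 0.11, adjusted p = 0.0116), ran from 4.83 through 5.51 to 8.03 CPM and from 6.21 through 8.14 to 11.2 CPM. No member had RXRa libraries clear of all EGFP libraries within both sexes, which held for 0.0843% of all genes upward and 0.0957% downward.

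The summed level of each complex followed this pattern. For complex I the EGFP libraries of D2 ran from 601 to 756 CPM and the RXRa libraries from 598 to 966 CPM, and for ATP synthase from 269 to 389 CPM and from 278 to 580 CPM. For complex III the ranges were 62.7 to 92.1 CPM and 63.2 to 141 CPM, and for complex IV 136 to 182 CPM and 140 to 222 CPM. In complexes I and III and ATP synthase 5 of 8 RXRa libraries, and in complex IV 4 of 8, lay above every EGFP library of their sex. Libraries 2 and 4 of females and 3 and 5 of males were above it in all 4 sums. In D1 the same count was 1 of 8 for complexes I and IV and 2 of 8 for complex III and ATP synthase.

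**Figure D3:**
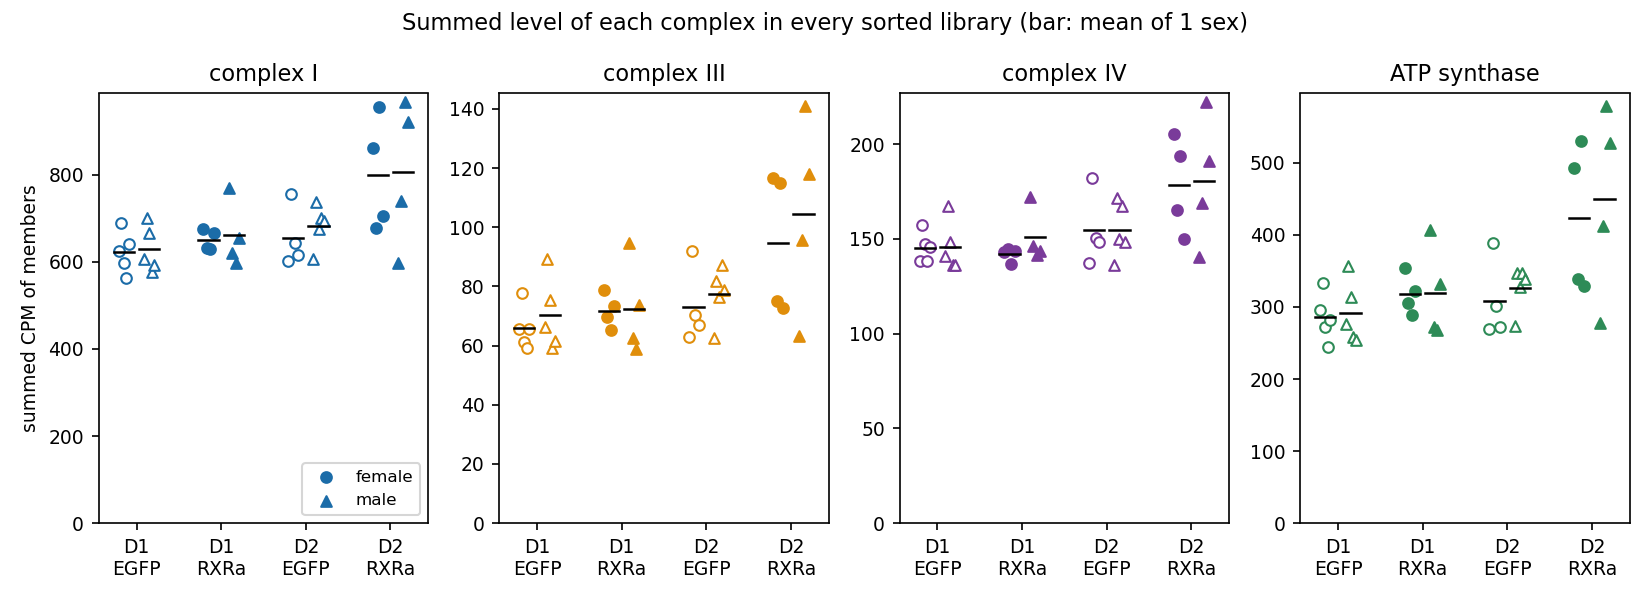
Summed CPM of the members of each complex in every sorted library (circles female, triangles male; open EGFP, filled RXRa), with the mean of each sex as a bar. In D2 the filled points spread upward, with 5 of 8 above all EGFP libraries of their sex in complexes I and III and ATP synthase, and the lowest filled points lie at the height of the lowest open ones.

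Within each sex no gene passed the test in D2 by edgeR (0% of 43902 in both), and the members' medians were alike, 0.38 in females and 0.37 in males. Of the members, 41 in females and 37 in males had an unadjusted p under 0.05, against 25.2% and 19.7% of all genes. DESeq2 called 17 members in females and 0 in males. By edgeR 19 were called in females without RXRa library 3 and 50 in males without RXRa library 1. The shares of all genes called by DESeq2 and in these fits are not given here. These counts are therefore not read as particular to the members. No member passed the test of the difference between sexes in D1 or D2 by edgeR, DESeq2 or limma voom (0% of all genes by edgeR), with unadjusted p under 0.05 for 1 member in D1 and 2 in D2, against 2.08% and 3.02% of all genes. D1 within each sex also had no call (0% in both), with an unadjusted p under 0.05 for 1 member in females and 0 in males, against 6.28% and 3.02%.

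The RXRa effects of D2 and D1 were then compared directly. No member differed by edgeR, DESeq2 or limma voom, and no gene did by edgeR (0% of 43902), so the calls in D2 alone do not show that the populations responded differently. The D2 effect was the larger one for 85 of 90 members, against 50.4% of all genes, with a median difference of 0.27 log2 units against 0.0021. Of the members, 17 had an unadjusted p under 0.05, against 8.22% of all genes. The smallest p-values belonged to Atp5s (0.25, SE 0.075), Ndufs5 (0.45, SE 0.15), Ndufc1, an accessory subunit of complex I (0.54, SE 0.21), Cox5a (0.23, SE 0.090) and Cox6a1 (0.48, SE 0.20), all with an adjusted p of 0.601 by edgeR.

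Between populations without RXRa the members leaned toward D2, with no call. Of the 90, none differed between D2 and D1 nuclei under EGFP by edgeR, DESeq2 or limma voom, where edgeR called 0.121% of all genes, and 9 had an unadjusted p under 0.05, against 10.5% of all genes. The median log2 difference was 0.13 toward D2, with 76 above 0, against 52.4% of all genes. Uqcr10 (0.32, SE 0.12), Ndufa4 (0.35, SE 0.14), the assembly factor Ndufaf4 (0.37, SE 0.15) and Uqcrq (0.46, SE 0.20), the last a small subunit of complex III like Uqcr10, were toward D2 and Cox8b (-0.32, SE 0.14) toward D1, with adjusted p-values by edgeR from 0.331 to 0.431.

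Levels of the members in sorted nuclei followed gene length. Across the 90 members the mean EGFP level in CPM had a Spearman's rho of 0.92 with the length of the gene body, 0.53 with exon length and 0.24 with the bulk GFP level, whereas in bulk the level had a rho of 0.14 with body length (a description, since the genes share libraries). How much of this comes from introns was not tested. Cox7b2, a testis isoform with a body of 105.38 kb and 41 counts in all bulk libraries together, stood at 57.7 ± 2.75 CPM (SD, n = 10) in D1 EGFP nuclei and 60.4 ± 5.65 CPM (n = 9) in D2 EGFP nuclei. The long Atp5o model (242.58 kb, across Itsn1 and other genes) had no bulk count and 95.7 ± 4.97 CPM in D2 EGFP nuclei, far above the 3.54 ± 0.814 CPM of Cox4i1, a gene among the highest in bulk.

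Genes that bulk tissue did not express gave a scale for this. Silent genes are the 1575 protein-coding autosomal genes with a body of 5 kb or more and no count in any bulk library. For them the median level per kb of gene body was 0.530 ± 0.025 CPM in D2 EGFP nuclei and 0.460 ± 0.054 CPM in D2 RXRa nuclei (SD, n = 9 and 8). It was 0.510 ± 0.024 CPM and 0.471 ± 0.056 CPM in D1 (n = 10 and 8). The median member had 2.06 times the silent level per kb. Of the members 18 were at or under 1.5 times it and 48 above 2 times, with Atp5a1 (6.09), Cox7c (5.71) and Atp5b (5.50) the highest, and Cox7b2 (1.09), Cox8c (1.10) and the long Atp5o model (0.817) close to or under it.

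**Figure D4:**
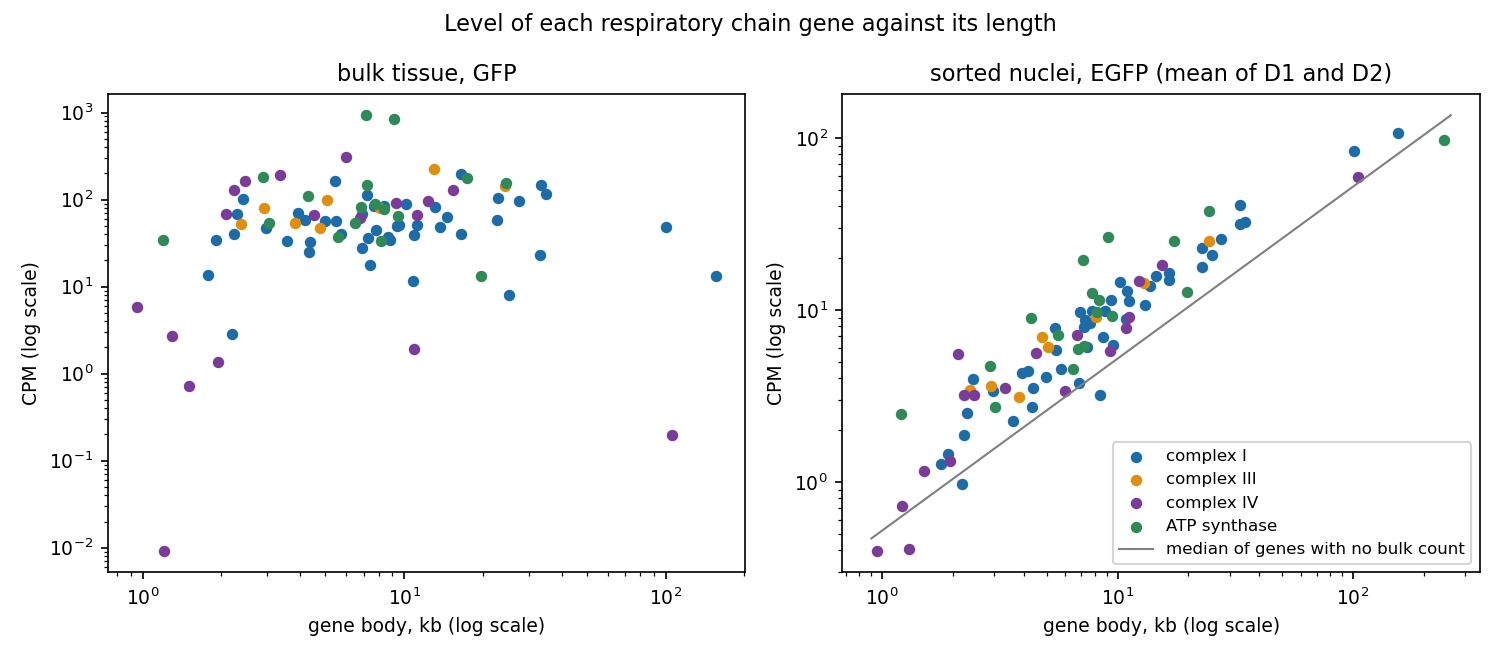
Level of each member (1 point, coloured by complex) in CPM against gene body in kb, both on log scales, in bulk GFP tissue and in sorted EGFP nuclei; the grey line is the median level of genes with no bulk count for that length. In nuclei the points follow the line upward with length (rho 0.92), and in bulk they do not (rho 0.14).

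The D2 change was larger in members that stood further above the silent level. Of the 18 members up to 1.5 times that level 5 rose, with a median log2 fold change of 0.15, and of the 24 between 1.5 and 2 times 10 rose, with a median of 0.27. Of the 43 between 2 and 4 times 26 rose, with a median of 0.43, and all 5 above 4 times rose, with a median of 0.70. Beside these counts, 14.9% of all genes tested rose, and 44.7% of genes above 10 CPM in bulk. Other genes were not divided by this ratio, so the trend is not read as particular to the members. Across the 90 members Spearman's rho between the change and this ratio was 0.54, a description over genes that share libraries and a ratio that includes the RXRa libraries. The share of counts in all genes without a bulk count was 5.43% to 6.23% in D2 EGFP libraries and 3.81% to 6.16% in D2 RXRa libraries. With that share as a covariate no member was called in D2, and no gene was, while 4 members had an unadjusted p under 0.05, 79 were above 0, against 52.3% of all genes, and the median was 0.15 against 0.0069 over all genes. RXRa library 4 of females and RXRa library 5 of males, without which the fewest members were called, had the lowest shares of the D2 libraries, 3.81% and 4.17%. The median share was 6.1% under EGFP and 5.03% under RXRa in D2, and 6.06% and 5.46% in D1. Because the share differed with the vector, the fits with it cannot separate the 2.

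**Figure D5:**
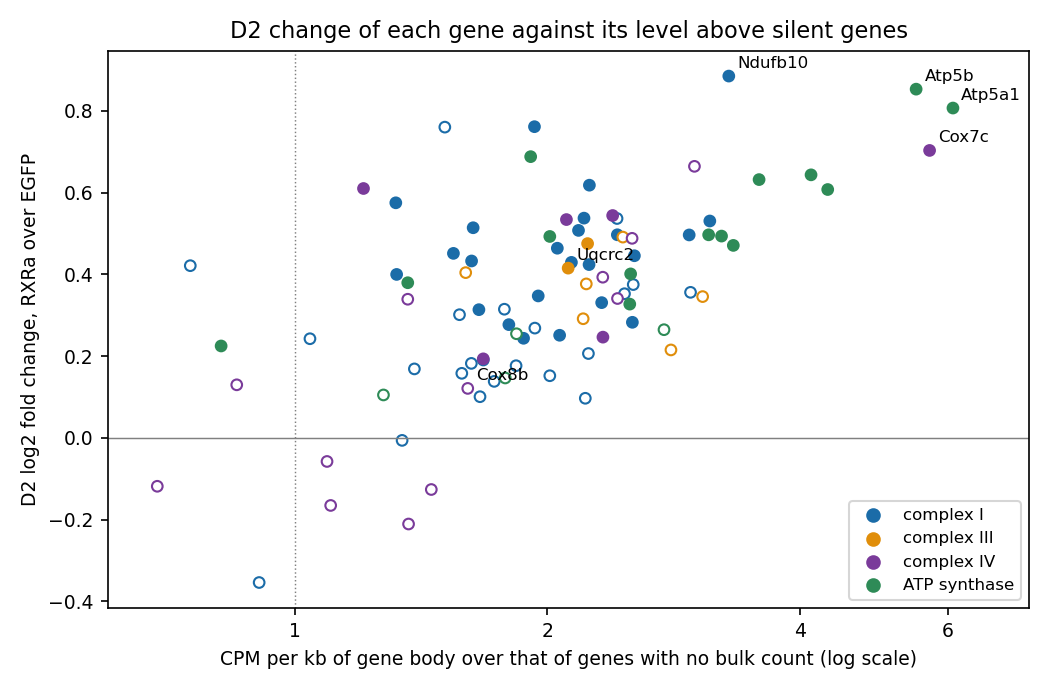
D2 log2 fold change (RXRa over EGFP) of each of 90 members against its level per kb of gene body divided by that of genes with no bulk count (log scale); colours are complexes and filled points passed an adjusted p of 0.05. The 5 members above 4 times the silent level, among them Atp5a1, Atp5b and Cox7c, all rose, and the 18 up to 1.5 times it have a median of 0.15. Of all genes tested 14.9% rose, and genes other than members are not shown.

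Markers of the sorted cells moved with the members as well. Of 5 genes that mark D2 projection neurons 4 were called higher in D2 nuclei of the RXRa groups. Their median log2 fold change was 0.67, and their sum ranged from 762 to 1472 CPM under EGFP and from 890 to 2743 CPM under RXRa. Of 5 markers of D1 projection neurons 2 were called higher and 1 lower, with a median of 0.45. In D1 nuclei the D1 and D2 projection neuron lists had medians of 0.26 and 0.33, with 0 called. None of the oligodendrocyte or T cell markers was called. Of the astrocyte and of the mural markers 2 each were lower, of the endothelial and of the interneuron markers 1 each, and of the microglia markers 1 was higher and 1 lower. None of the markers was at 0 in D2 nuclei, where oligodendrocyte markers summed to 129 to 269 CPM under EGFP and 137 to 206 CPM under RXRa. The part of these markers and of the silent share in the members' rise was not tested. The fit with the share as a covariate cannot separate it from the vector.

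Lists of genes that work with the members were read against the 14.9% of all genes, and the 44.7% of genes above 10 CPM in bulk, that rose in D2. Of 13 tested electron transport genes outside the symbol rule 7 rose (53.8%), among them Cyc1, the cytochrome of complex III (0.89, SE 0.26, adjusted p = 0.0185 by edgeR), Cycs, cytochrome c (0.57, SE 0.20, adjusted p = 0.0384), and Sdha, the flavoprotein of complex II (0.52, SE 0.16, adjusted p = 0.0207). Of 31 assembly factors outside the rule 11 rose (35.5%). Of 16 genes of the tricarboxylic acid cycle and its entry 13 rose (81.2%), such as Mdh2, malate dehydrogenase (0.68, SE 0.17, adjusted p = 0.0123), and 1 fell, Suclg2 of succinyl-CoA synthetase (-0.23, SE 0.055, adjusted p = 0.0112). Of 78 genes of the mitochondrial ribosome 27 rose (34.6%), and of 100 of the cytosolic ribosome 51 (51%). Of 18 regulators of mitochondrial genes 7 rose (38.9%) and 15 were above 0. Among the 7 were Esrra, an orphan nuclear receptor (0.43, SE 0.11, adjusted p = 0.0117), Gabpa (0.27, SE 0.089, adjusted p = 0.0295) and Yy1 (0.26, SE 0.083, adjusted p = 0.0279). Nrf1 (0.056, SE 0.047, adjusted p = 0.398) and Ppargc1a (0.13, SE 0.067, adjusted p = 0.1525) did not pass. The 3 below 0 were the PPAR genes Ppara (-0.15, adjusted p = 0.135), Pparg (-0.12, adjusted p = 0.110) and Ppard (-0.045, adjusted p = 0.774), and none was called. Of the 13 protein-coding genes of the mitochondrial genome 11 were tested, and none was called, with a median of 0.25. The shares of the assembly factors, the mitochondrial ribosome and the regulators were below the 44.7% of genes above 10 CPM. The lists were not limited to genes above that level, so these shares are not like for like. Whether any list differs from the members' 51.1% was not tested. With library totals alone, 2 electron transport genes rose and 1 fell, 2 assembly factors rose and 1 fell, 4 tricarboxylic acid cycle genes rose and 1 fell, and 1 regulator rose and 3 fell, the regulators' median being -0.055. By the same scaling 3 genes of the mitochondrial and 13 of the cytosolic ribosome rose and 2 of each fell. With the silent share as a covariate none of these lists had a call. In bulk the same lists had 0 calls, save 1 lower gene of the cytosolic ribosome, and in D1 they had none.

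Members with NRF1 letters in the promoter window had a median D2 log2 fold change of 0.48, with 13 of 17 called higher, and the 54 with a window but no such letters had a median of 0.33, with 23 called, where 14.9% of all genes were called higher. With YY1 letters 5 of 8 were called, with a median of 0.38, and without them 31 of 63, with a median of 0.38. With GABP letters 2 of 5 were called, with a median of 0.49, and without them 34 of 66, with a median of 0.35. In bulk, where 53 of the 54 were tested, the medians with and without NRF1 letters were -0.055 and -0.085. Among those shown above, Ndufs5, Ndufb4 and Atp5h rose in D2, and Ndufaf4 and Uqcrh did not pass the test. Ndufb10 and Atp5b had larger fold changes than these and no match to the NRF1, GABP or YY1 letters in the stretch shown. These values describe the members and were not tested.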

How the data were processed

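Per the file headers and values, the deposited tables hold whole-number counts per Ensembl gene, with no normalization, and 2 vector entries that were left out of library sizes. Per the labels, bulk libraries were poly(A)-selected and sorted libraries were ribosomal-RNA-depleted. The submitters' processing notes name FastQC, Trimmomatic, HISAT2, Picard, featureCounts, Subread and the build GRCm38, with no versions. Use of strand, intron reads and annotation release are not given in the sources used here, so reads of overlapping genes may be shared.

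Gene types, lengths and exon overlaps came from GENCODE M21, which held 55394 of 55487 identifiers. Members and lists were chosen with earlier results of these data known. Tests used edgeR 4.0.16 in R 4.3.3 (quasi-likelihood, filterByExpr, TMM) over all genes, with Benjamini-Hochberg adjustment. The 2 bulk groups were fitted alone, and the 8 sorted groups together with the sexes weighted equally. CPM were counts over the scaled library size times 1e6. Counts of the 72 replicate pairs differed beyond sampling noise (chi-square over its degrees of freedom, 1.79 to 63.6), so each library counted as 1. The script was tested on simulated data. Alternatives were DESeq2 1.42.0, limma 3.58.1 voom, other scalings and filters, a replicate block, the population alone, the silent-gene share as a covariate, and each library left out. Named genes were fixed subunits, isoform pairs, the 5 members with the smallest p in 5 comparisons, up to 3 largest called rises and falls in bulk and D2, and the highest member of each complex in bulk. Figures used matplotlib 3.10.9. Promoters came from RefSeq on GRCm38.p6. Values of 1 member are not reported here.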

Additional observations from a re-analysis of the deposited data

Results flagged for a closer look

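In groups of 4 or 5 libraries, 1 library was set against the rest by its gap to the nearest other, as a share of the range, for the complex sums, library-level values and single genes shown. Of 132 groups, 5 had such a library (3.79%), where chance gives about 1 in 20. Summed ATP synthase members in D2 males with EGFP had a lowest library at 273.9 CPM, under the next at 327.5 CPM, and in the same group the lowest Uqcrc2 value was 22.0 CPM, the next being 27.09 CPM. Ndufs5 there had a highest value of 7.918 CPM over the next at 5.661 CPM. Summed complex IV members in D1 males with RXRa had a highest library at 172.1 CPM, over the next at 146.0 CPM. In bulk GFP tissue the lowest Ndufaf8 value was 12.53 CPM, under the next at 13.76 CPM.

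The sorted library that entered no comparison, titled as an RXRa library and labelled with the EGFP vector, had 2941 counts of the vector's RXRa sequence, above the 0 to 17 counts of the sorted EGFP libraries. Members made up 0.132% of its counts.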

How the results depend on the processing

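The 46 calls among members in D2 became 17 with library totals alone, 29 with limma voom, 30 with the replicate number as a block, 11 with D2 fitted alone and 0 with the silent-gene share as a covariate. Of those 46, 15 remained with library totals alone, 29 with limma voom, 30 with the block and 11 with D2 alone. With other size factors, no filter, a filter at a mean of 1 CPM or DESeq2, the count stayed within 1.5 times. Leaving out each library in turn gave 0 to 71. The median log2 fold change of members in D2 was 0.18 with library totals alone and 0.15 with the covariate, and 0.26 to 0.47 with a library left out. In bulk DESeq2 called 1 member. In D2 females DESeq2 called 17, and left-out libraries gave 0 to 19, in D2 males 0 to 50. No other alternative gave a call in a comparison with 0. Where no share of all genes stands beside such a count, the count is not read as particular to the members.

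Of 46 gene values, 3 turned direction: Ndufa4 in D2 (-0.077) and the long Atp5o model in D1 (-0.0076) with the covariate, and Atp5g1 in D2 (-0.027) with library totals alone. The causes were not tested. Libraries with the same replicate number did not deviate together (r from -0.53 to 0.49 in bulk, -0.37 to 0.58 in sorted nuclei), so the block rests on numbers alone, and it changed no call other than those in D2. The sorted depth, a median of 100 to 221.5 counts per member, limits what can be seen for short, low genes.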
